A study of Mus musculus with 2 samples.

Results

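Matricellular proteins are secreted proteins that sit in the extracellular matrix without being structural fibres and that bind collagens, growth factors and cell-surface receptors. In the adult heart most of them are scarce until an injury, after which activated fibroblasts and macrophages release them into the forming scar. Described here are 10 such genes, taken by name as one group: Postn, Spp1, Sparc, Sparcl1, Thbs1, Thbs2, Thbs4, Comp, Tnc and Cthrc1. Of these, 9 occur among the 15181 genes of the 22 tables analysed, and Thbs4 occurs in none. All 9 are in each of the 4 fibroblast subcluster tables, which hold 15059 genes apiece, and 4 of them (Spp1, Sparc, Thbs1 and Cthrc1) are also in at least 1 of the 18 tables of whole cell clusters.

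Interstitial cells were sorted as live cells from mouse ventricles and profiled by droplet single-cell RNA sequencing in 2 libraries, 1 per genotype. The control library came from PostnMCM mice, which express a tamoxifen-inducible Cre recombinase (MerCreMer) from the Postn locus. The other library came from Yapfl/fl;Wwtr1fl/+;PostnMCM mice, in which 2 alleles of Yap1 and 1 allele of Wwtr1 (the gene of TAZ) were flanked by loxP sites. Mice of both genotypes also carried the R26-eGFP reporter, were 8 to 10 weeks old at myocardial infarction (MI) and then ate chow with 0.4 g/kg tamoxifen; by the labels cells were taken 6 days after MI, and by the study's methods 7. Cre is therefore limited to cells in which Postn is active, and Postn is both a gene measured here and the locus that carries the driver in both groups. How many hearts went into a library is not given in the sources used here.

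The measurement is the share of cells of a cluster with a corrected count above 0 for a gene, in percent, and differences are the share in the library labelled Yap/Wwtr1-depleted minus the share in the control library, in percentage points. There is 1 library per genotype, so there is no replicate check, no test and no error for any value, and the tables state neither the number of cells nor the depth behind each share. The lowest share above 0 in a subcluster table was 0.7% to 4.3% in the control library and 3.1% to 10% in the library labelled depleted; the 10% is in subcluster 4. There all shares of the library labelled depleted are multiples of 10% (11 distinct values, against 22 to 146 in each other library and subcluster), so that a difference of 10 points, as for Postn, is a single step. A difference of at least 10 points is called past the limit here, as a rule of size only. The share of cells with a Yap1 count was 46.2%, 23.3%, 57.5% and 30.4% in subclusters 0, 3, 4 and 5 of the control library, and 56.2%, 43.5%, 40% and 47.6% in the library labelled depleted. For Wwtr1 the control shares were 81.4%, 93.3%, 80% and 100%, against 90.6%, 91.3%, 60% and 85.7%. Yap1 was lower in 1 of the 4 subclusters and Wwtr1 in 3, so these shares do not check the label. Counts at the 3′ end of a transcript need not be lower when a floxed exon is lost, and the direction of each comparison is taken from the label.

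Cluster 5 holds the fibroblasts, and its cells had been clustered once more on their own. Their counts were corrected anew among these cells alone before that step. Shares of a subcluster and of a whole cluster therefore do not rest on the same corrected counts. By name, subcluster 0 is epicardial, subcluster 3 proliferating myofibroblasts, subcluster 4 matrifibrocytes (fibroblasts of mature scar) and subcluster 5 secretory myofibroblasts. Most cells of subclusters 0 and 4 belong to the control library, whereas subcluster 1, the one made up mainly of the library labelled depleted, was not analysed here, so that many fibroblasts of that library enter no comparison within a subcluster. The fibroblast genes Col1a1, Col1a2, Col3a1 and Dcn were counted in 100% of cells of all 4 subclusters in both libraries. Over 10 epicardial markers the mean share in the control library was 75.1%, 73.3% and 73.2% in subclusters 0, 3 and 4 and 24.3% in subcluster 5, so the first 3 all held epicardial transcripts. Postn, by contrast, was counted in 87% of control cells of subcluster 5 and in at most 40% elsewhere.

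**Figure D1:**
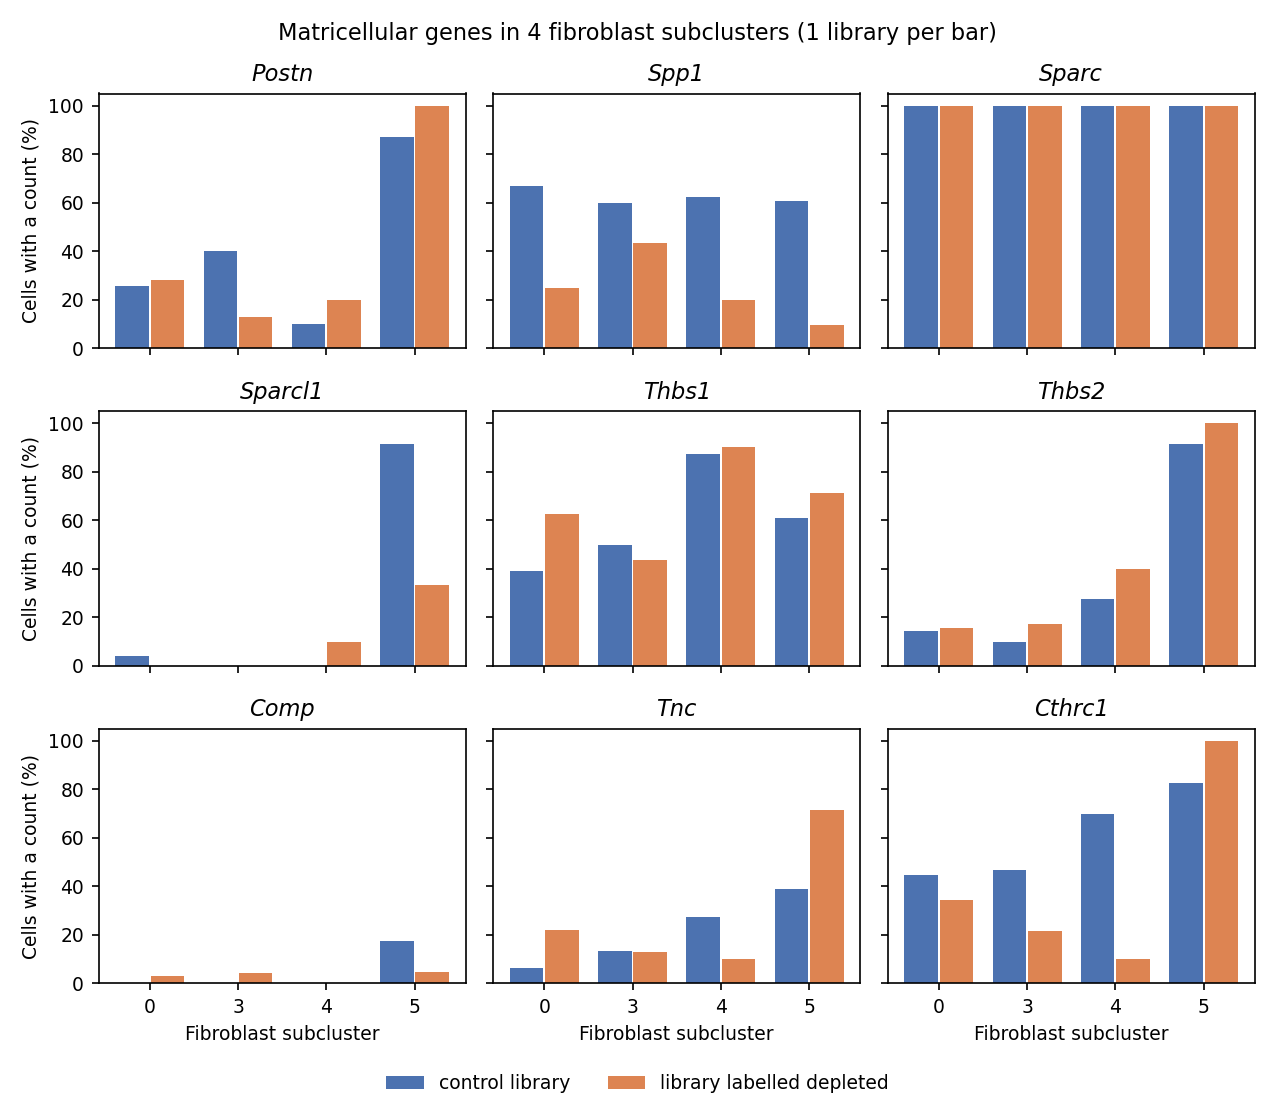
Percent of cells with a count (vertical axes) for 9 matricellular genes in fibroblast subclusters 0, 3, 4 and 5 (horizontal axes), with 1 bar for the control library and 1 for the library labelled Yap/Wwtr1-depleted; there are no error bars because each bar is 1 library. Postn, Thbs2 and Cthrc1 reach 100% in subcluster 5 of the library labelled depleted, Sparc is at 100% throughout, and Spp1 is lower in that library in all 4 subclusters.

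Postn encodes periostin, which is secreted by activated fibroblasts and binds integrins and collagen. It lies at chr3:54268501-54298471 on the plus strand of GRCm39. Control shares with a Postn count were 25.5%, 40%, 10% and 87% for subclusters 0, 3, 4 and 5. In the library labelled depleted the shares were 28.1%, 13%, 20% and 100%. Subcluster 5 was highest in both libraries, and subcluster 3 went from the next highest to the lowest. The differences, in the same order, were 2.6, -27, 10 and 13 points. Of all genes in the subcluster 3 table, 1.65% had a lower difference than Postn. Ordered by control cells the subclusters run 5, 3, 0, 4, and by cells of the library labelled depleted they run 5, 0, 4, 3, so that 4 of the 6 pairs of subclusters kept their order. None of the 18 cluster tables, that of the fibroblast cluster included, lists Postn.

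Spp1 encodes osteopontin, a ligand of CD44 and of integrins that both macrophages and fibroblasts secrete after injury (chr5:104582165-104589235, plus strand). In the control library its shares were nearly even over the fibroblast subclusters, at 66.9%, 60%, 62.5% and 60.9% in subclusters 0, 3, 4 and 5. In the library labelled depleted they were 25%, 43.5%, 20% and 9.5%. The differences of -41.9, -16.5, -42.5 and -51.4 points were all past the limit. Among all genes of the table, 0.0398%, 7.76%, 0.212% and 0.0664% had a lower difference in subclusters 0, 3, 4 and 5, so that Spp1 stood near the bottom of 3 tables and less far down in that of subcluster 3.

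Among whole clusters, Spp1 was listed for 9, all of immune or mixed cells. Among macrophages and monocytes, the share went from 84.5% in the control library to 51.8% in cluster 0, from 56.4% to 33.8% in cluster 3, from 38.9% to 10.4% in cluster 11 and from 37.9% to 33.8% in cluster 13. Among neutrophils it went from 44.5% to 42.5% in cluster 1 and from 54.5% to 23.5% in cluster 18. It was 34.2% and 15.4% in natural killer cells (cluster 14), 31.2% and 4.5% in cluster 15, which is unidentified or mixed, and 45% in control dendritic cells (cluster 17), where the library labelled depleted is listed at 0. Cluster tables hold only genes past limits of size and share, and the other 9, that of fibroblast cluster 5 included, give no Spp1 share; for fibroblasts its shares come from the subcluster tables. Of the 9 that list it, 5 (clusters 11, 14, 15, 17 and 18) do so through the control library alone, since the other library's share is under 25%, and a lower share was then fixed by the listing. In the other 4 (clusters 0, 1, 3 and 13) both libraries were at 25% or more, and Spp1 was lower in all 4. Of the 105 genes listed in at least 9 cluster tables, 14 (13.3%) had a lower share in the library labelled depleted in all tables listing them, Spp1 among them, and 13 (12.4%) had a higher share in all.

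**Figure D2:**
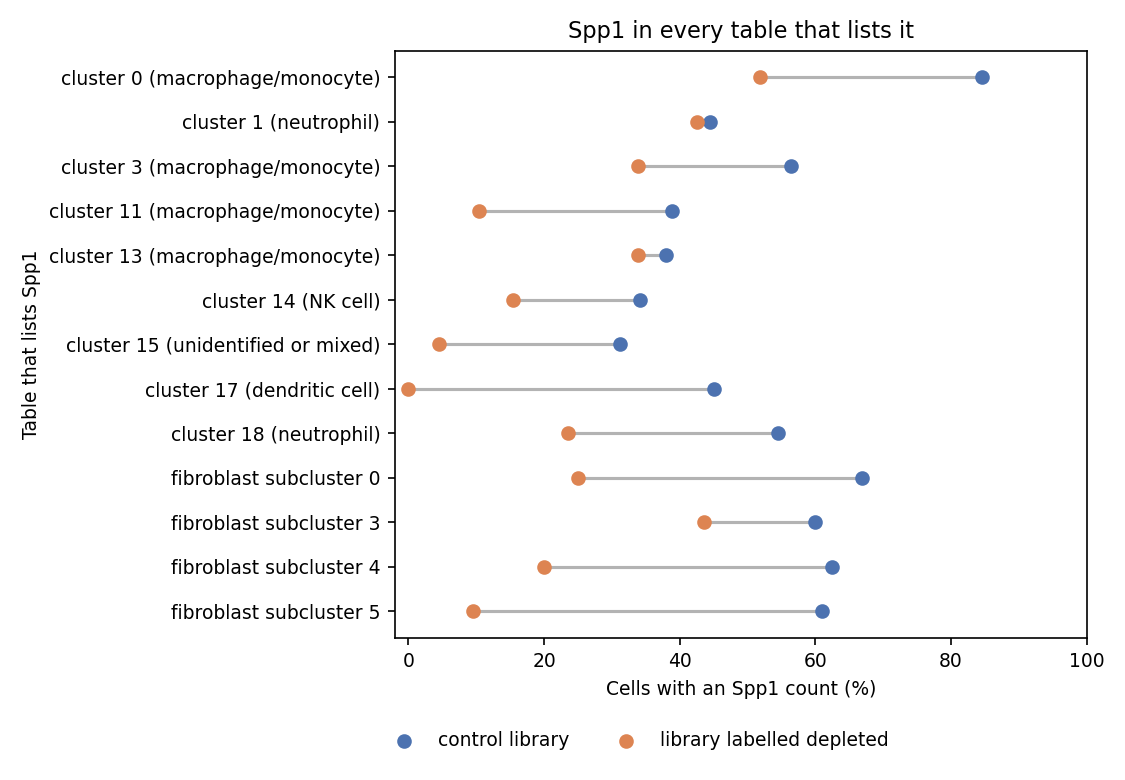
Percent of cells with an Spp1 count (horizontal axis) in the 9 cluster tables and 4 fibroblast subcluster tables that list it (vertical axis). Each line joins the control library and the library labelled depleted. Counts behind the subcluster shares were corrected apart from those behind the cluster shares. In 5 clusters (11, 14, 15, 17 and 18) the gene was listed through its control share alone; in the others and in the 4 subclusters the library labelled depleted is also to the left, by as little as 42.5% against 44.5% in cluster 1.

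Transcripts of immune cells were counted in the fibroblast subclusters too, and their shares were mostly lower in the library labelled depleted, as that of Spp1 was. Over 10 macrophage markers the mean share in the control library was 60.2%, 56%, 59.5% and 46.5% in subclusters 0, 3, 4 and 5, and in the library labelled depleted it was 36.6%, 41.3%, 40% and 34.8%. Of these 10 genes, 8, 5, 5 and 6 were lower by at least 10 points and 0, 0, 2 and 2 were higher, beside 9.85%, 17.1%, 20.3% and 14.3% of all genes lower and 10.8%, 13.1%, 24.7% and 21.2% higher, shares that also apply to the neutrophil markers. Single macrophage markers ranged from 13% to 90% of cells in the control library and from 0% to 80% in the library labelled depleted. Over 8 neutrophil markers the means were 35.7%, 35.8%, 34.1% and 33.2% in control cells and 14.4%, 19%, 20% and 27.4% in the library labelled depleted, with 6, 5, 3 and 3 genes lower by at least 10 points and 0, 0, 0 and 1 higher. Single neutrophil markers reached 96.7% of cells in the control library and 71.4% in the library labelled depleted. Lists for other cell types gave lower means: 5% to 17.1% for endothelial, 5% to 14.5% for mural, 9.8% to 23.4% for Schwann and 3.8% to 6.2% for cardiomyocyte markers in the control library, and 4% to 11.7%, 5.8% to 11.1%, 7.5% to 17.4% and 0.4% to 5% in the library labelled depleted. The defining markers of macrophages and neutrophils were thus not absent from cells of the fibroblast cluster in either library, and their part in the Spp1 values was not tested. Doublets and free RNA were not tested either, because the cells themselves were not analysed here.

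**Figure D3:**
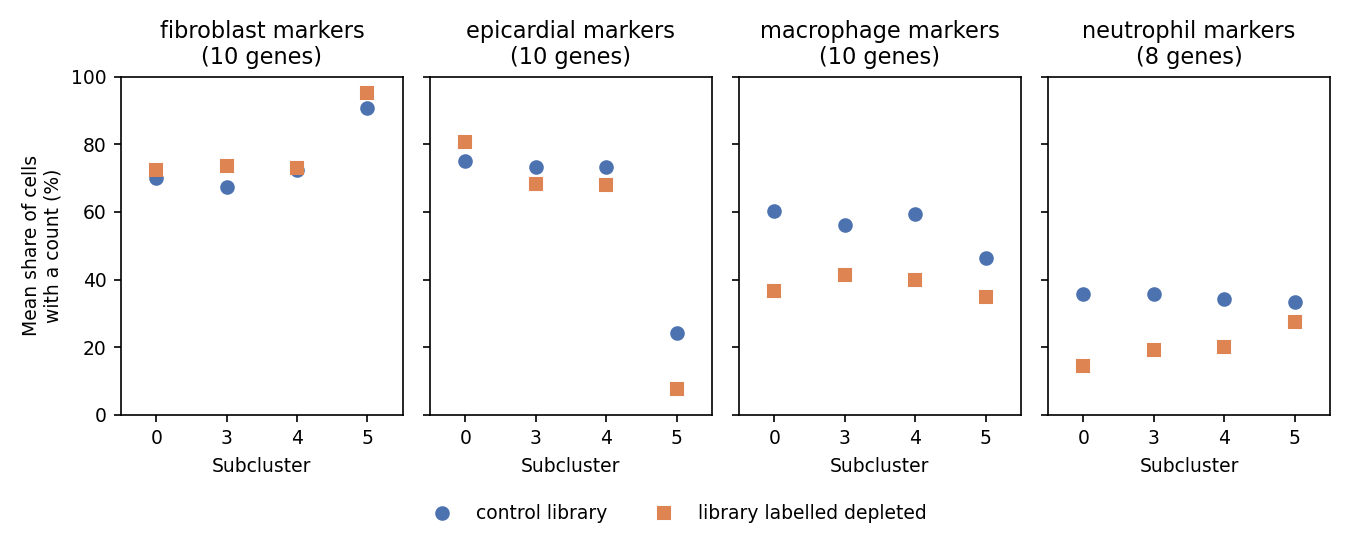
Mean share of cells with a count (vertical axes, percent) over the markers of 4 cell types in fibroblast subclusters 0, 3, 4 and 5 (horizontal axes), with circles for the control library and squares for the library labelled depleted; each point is 1 library. Macrophage and neutrophil means are lower in the library labelled depleted in all 4 subclusters, fibroblast means are 67.3% to 95.2% throughout, and epicardial means are lowest in subcluster 5.

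Sparc and Sparcl1 encode related collagen-binding glycoproteins, of which Sparc is abundant in fibroblasts and endothelium. Sparc (chr11:55285317-55314067, minus strand) had a count in 100% of cells in all 4 subclusters of both libraries. A share at its upper end cannot show a higher or lower level per cell, so the comparison is blind for this gene in fibroblasts. Outside fibroblasts Sparc was listed in 3 cluster tables, at 36.4% of control cells and 7% of cells of the library labelled depleted in T cells of cluster 10, at 34.4% and 9.1% in cluster 15, and at 36.4% in control neutrophils of cluster 18, where the other library is listed at 0. All 3 were listed through the control library alone, so their direction was fixed by the listing. Lymphocytes and neutrophils are not known as sources of Sparc, and the depth of these cells is unknown.

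Sparcl1 (chr5:104226288-104262065, minus strand) was almost limited to subcluster 5. In the control library its shares were 4.1%, 0%, 0% and 91.3% in subclusters 0, 3, 4 and 5, and in the library labelled depleted 0%, 0%, 10% and 33.3%. The difference of -58 points in subcluster 5 was among the lowest of the table, with 0.0332% of genes below it. In subcluster 4 the difference was 10 points, from 0% to the lowest share above 0 of the other library. Sparcl1 and Spp1, which lie near each other on chromosome 5, were thus both lower by over 50 points in subcluster 5.

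Thrombospondin-1 binds CD36, CD47 and integrins, and Comp is the fifth gene of the thrombospondin family. Thbs1 (chr2:117941974-117957616, plus strand), known as an activator of latent TGF-beta, was highest in subcluster 4 in both libraries. Its control shares were 39.3%, 50%, 87.5% and 60.9% in subclusters 0, 3, 4 and 5, against 62.5%, 43.5%, 90% and 71.4% in the library labelled depleted. It was higher by 23.2 points in subcluster 0, where 99.1% of genes had a lower difference, and by 10.5 points in subcluster 5. In cluster tables Thbs1 was listed 4 times. It went from 34% to 51.3% in macrophages of cluster 3, from 53.7% to 78.9% in those of cluster 13, from 28.9% to 33.2% in fibroblasts of cluster 5, and, the other way, from 64% to 58.7% in macrophages of cluster 0. The 3 macrophage clusters that list Thbs1 (0, 3 and 13) therefore did not share a direction, whereas Spp1 was lower in all 3 of them. Cluster 11, which also lists Spp1, is left out of this comparison. It was listed through the control library alone, so its lower Spp1 share was fixed by the listing.

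Thbs2 (chr17:14885761-14914528, minus strand), which restrains angiogenesis and matrix breakdown, had control shares of 14.5%, 10%, 27.5% and 91.3% in subclusters 0, 3, 4 and 5. The shares in the library labelled depleted were 15.6%, 17.4%, 40% and 100%, higher in each subcluster and past the limit in subcluster 4, by 12.5 points. Comp (chr8:70826192-70834716, plus strand), a matrix organiser best known from cartilage, was counted in 0%, 0%, 0% and 17.4% of control cells and in 3.1%, 4.3%, 0% and 4.8% of cells of the library labelled depleted. Apart from subcluster 5, where it was lower by 12.6 points, Comp was at or near the lowest share above 0. Thbs4 (chr13:92888095-92931501, minus strand) has no value here.

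Tnc encodes tenascin-C, a large glycoprotein of wounds and embryonic tissue that weakens cell adhesion (chr4:63878014-63965443, minus strand). In the control library 6.2%, 13.3%, 27.5% and 39.1% of cells of subclusters 0, 3, 4 and 5 had a count, against 21.9%, 13%, 10% and 71.4% in the library labelled depleted. It was higher by 15.7 points in subcluster 0 and by 32.3 points in subcluster 5, nearly equal in subcluster 3, and in subcluster 4 its difference was -17.5 points. In subcluster 5, 98.3% of genes had a lower difference.

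Cthrc1 encodes a secreted protein with a collagen triple helix repeat that marks activated scar fibroblasts (chr15:38940246-38950518, plus strand). Its control shares were 44.8%, 46.7%, 70% and 82.6% in subclusters 0, 3, 4 and 5. In the library labelled depleted they were 34.4%, 21.7%, 10% and 100%. The share was lower in subclusters 0, 3 and 4, with differences of -10.4, -25 and -60 points, and higher in subcluster 5, by 17.4 points. The difference in subcluster 4 had 0.0266% of genes below it. Cthrc1 was the only member besides Thbs1 listed for the fibroblast cluster as a whole, at 37.9% of control cells and 20.3% in the library labelled depleted, and it was listed there through the control library alone. Of the 605 genes listed for that cluster, 54% had a lower share in the library labelled depleted.

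Counted over the 9 members, the differences past the limit were read against all 15059 genes of the same table. In subcluster 0, Thbs1 and Tnc (2 of 9) were higher, as were 10.8% of all genes, and Spp1 and Cthrc1 (2 of 9) were lower, as were 9.85%. In subcluster 3 no member was higher by at least 10 points (13.1% of all genes were) and 3 were lower (Postn, Spp1 and Cthrc1; 17.1%). In subcluster 4, Postn, Sparcl1 and Thbs2 were higher (24.7% of all genes) and Spp1, Tnc and Cthrc1 were lower (20.3%). In subcluster 5, Postn, Thbs1, Tnc and Cthrc1 were higher (21.2%) and Spp1, Sparcl1 and Comp were lower (14.3%). With a limit of 20 points 1 member (Tnc) was higher in subcluster 5 and 2 (Spp1 and Sparcl1) were lower. With a log2 ratio of shares of at least 1 the count of higher members there was 0, while that of lower members stayed at 3. The median difference over the 9 members was 1.1, -0.3, 0 and 8.7 points in subclusters 0, 3, 4 and 5, against 0 over all genes in each. The members thus had no common direction: in subclusters 0, 4 and 5 some were past the limit on either side. Of the 9, Spp1 alone was past the limit in the same direction in all 4 subclusters. In subcluster 3 its difference was -16.5 points with a log2 ratio of -0.464. That is short of the limits of 20 points and of a log2 ratio of 1.

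**Figure D4:**
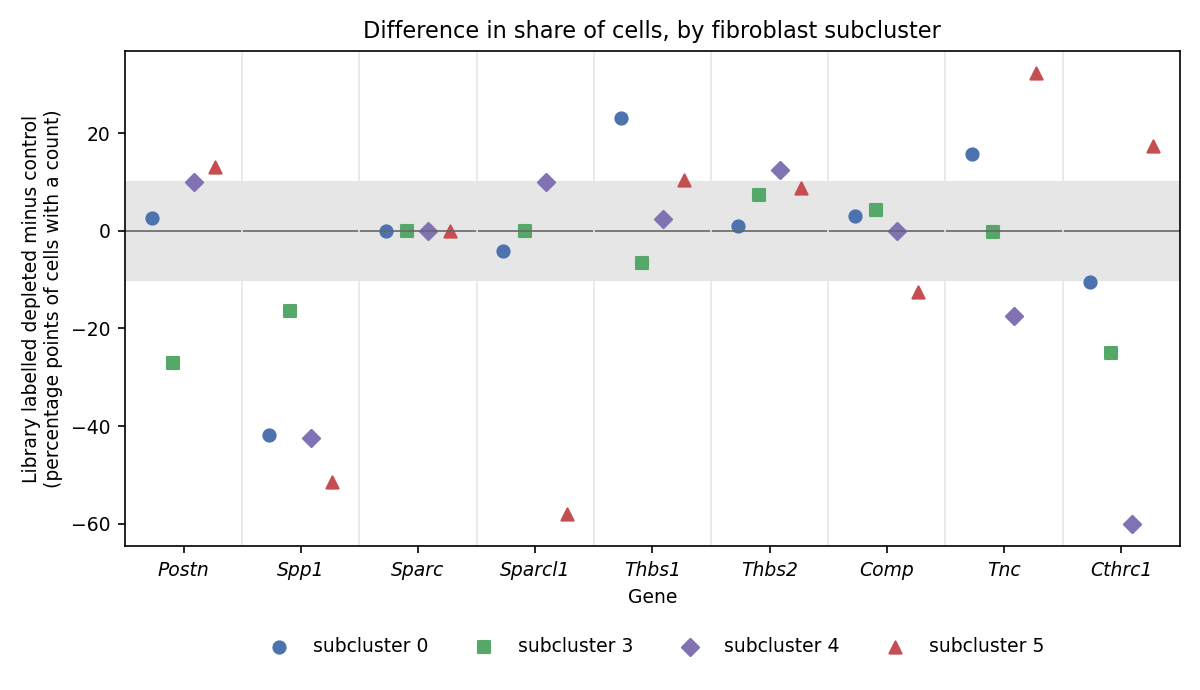
Difference in the share of cells with a count, library labelled depleted minus control library, in percentage points (vertical axis) for 9 matricellular genes (horizontal axis), with 1 symbol per fibroblast subcluster; the grey band covers differences under 10 points either way. Spp1 is below the band in all 4 subclusters, Sparc is at 0 in all, and Postn, Sparcl1, Tnc and Cthrc1 have points at or past both edges of the band.

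In each library 6 of the 9 members had their highest share in subcluster 5: Postn, Sparcl1, Thbs2, Tnc, Cthrc1 and Comp. Of all 15059 genes, 20.8% were highest in subcluster 5 in the control library and 21.6% in the library labelled depleted. Subclusters were formed from these same cells and genes, so this is a description of how they were divided. Along the order of Postn detection in control cells (5, 3, 0, 4), Thbs2, Tnc and Cthrc1 were each higher in control cells of subcluster 4, at the low end, than in those of subclusters 3 and 0. In the library labelled depleted this held for Thbs2, while Tnc and Cthrc1 were lower in subcluster 4 than in both others. Over the 8 shares (4 subclusters in 2 libraries) and 13206 genes ranked, the Pearson correlation with Postn was 0.89 for Thbs2, 0.837 for Tnc, 0.781 for Cthrc1, 0.78 for Sparcl1, 0.664 for Comp, 0.001 for Thbs1 and -0.268 for Spp1. By rank among the 13206 genes, Thbs2 was 163, Tnc 303, Cthrc1 462, Sparcl1 465, Comp 895, Thbs1 5205 and Spp1 7836. The genes most like Postn were Col15a1 (r = 0.984), Eya4 (0.982), Gask1b (0.98), Tmem45a (0.975) and Ecm2 (0.972). Col15a1, a basement membrane collagen, was counted in 82.6% of control cells of subcluster 5 against 95.2% in the other library, and nowhere else in over 26.7%. The 8 shares come from 2 libraries, so these coefficients describe a likeness only.

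Because YAP and TAZ act on DNA through TEAD proteins, the letters of a TEAD element were looked for in the 250 bases before the start of each gene's canonical transcript (GENCODE M39, GRCm39), on both strands and without regard to overlap. The element searched was CATTCC. It was in 3 of the 10 members (Cthrc1, Spp1 and Thbs4) and in 12.1% of the 21770 windows of protein-coding genes. An AP-1 element, TGANTCA, was in 1 member (Thbs1) and in 6.17% of windows, and a TATA box, TATAAA, was in 1 member (Thbs2) and in 11.9%. Which letters are found depends on the annotated start. In RefSeq windows of the same length (GRCm38.p6), which number 9 for 6 of the members, the TEAD element was in Thbs4 alone, the AP-1 element in none, and the TATA box in Postn, Spp1, Thbs2 and Tnc. Of all 32851 RefSeq windows, 12.6%, 6.75% and 12.4% held these motifs. The stretches of Postn, whose locus drives Cre, of Spp1 and Cthrc1, which hold the TEAD letters here, and of Thbs1 are given below. Each is in reading direction of the gene, with matches to the TEAD or AP-1 element in capitals. They lie at chr3:54268251-54268500 (Postn), chr5:104581915-104582164 (Spp1), chr15:38940046-38940295 (Cthrc1) and chr2:117941724-117941973 (Thbs1), all on the plus strand.
Postn: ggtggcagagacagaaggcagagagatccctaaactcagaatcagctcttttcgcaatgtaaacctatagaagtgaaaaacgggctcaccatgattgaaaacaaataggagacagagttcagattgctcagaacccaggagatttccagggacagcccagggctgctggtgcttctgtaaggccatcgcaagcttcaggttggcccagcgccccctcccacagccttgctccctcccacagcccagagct
Spp1: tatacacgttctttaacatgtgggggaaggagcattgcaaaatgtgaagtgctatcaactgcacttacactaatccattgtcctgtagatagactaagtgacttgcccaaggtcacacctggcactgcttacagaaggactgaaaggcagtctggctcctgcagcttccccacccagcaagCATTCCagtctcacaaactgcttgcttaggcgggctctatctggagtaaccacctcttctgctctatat
Cthrc1: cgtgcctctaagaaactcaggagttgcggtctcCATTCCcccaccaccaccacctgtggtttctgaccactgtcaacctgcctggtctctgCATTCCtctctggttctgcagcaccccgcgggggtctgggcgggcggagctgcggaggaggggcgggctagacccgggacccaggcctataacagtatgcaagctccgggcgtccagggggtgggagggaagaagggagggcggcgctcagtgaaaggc
Thbs1: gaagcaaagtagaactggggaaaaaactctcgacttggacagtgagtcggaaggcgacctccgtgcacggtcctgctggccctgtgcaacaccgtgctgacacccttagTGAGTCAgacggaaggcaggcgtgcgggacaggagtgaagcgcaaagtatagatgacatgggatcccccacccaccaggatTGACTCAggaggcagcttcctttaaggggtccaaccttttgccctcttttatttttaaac

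The match in Spp1 spans bases 69 to 64 before the start, those in Cthrc1 bases 217 to 212 and 159 to 154, and the AP-1 matches in Thbs1 bases 141 to 135 and 60 to 54. The Postn stretch holds none of the 3 motifs. A match is a run of letters and no evidence of binding, and a relation of matches to the shares was not tested.

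Other matricellular genes were taken from a list of 30, of which 22 are in the subcluster tables. In subclusters 0, 3, 4 and 5, 1, 1, 4 and 4 of the 22 were higher by at least 10 points and 1, 6, 2 and 6 were lower, with median differences of 0.15, 0, 0 and -0.25 points. Of all genes measured, 10.8%, 13.1%, 24.7% and 21.2% were higher and 9.85%, 17.1%, 20.3% and 14.3% were lower, so that several of these counts, such as 4 of 22 higher in subcluster 5, are near the background. The lowest mean difference over the 4 subclusters was that of Ccn3, a secreted CCN family protein, whose shares went from 83.4%, 80%, 27.5% and 60.9% in control cells to 37.5%, 21.7%, 0% and 19%. Ccn4, another CCN protein, had a mean difference of -17.85 points, and was lower in subcluster 3 (50% and 21.7%) and subcluster 5 (82.6% and 38.1%). Lgals3, galectin-3, had a mean of -14.32 points, of which most lay in subcluster 5 (91.3% and 47.6%). At the other end, Angptl4, a secreted inhibitor of lipoprotein lipase, had a mean of 17.95 points, with 60.9% and 95.2% in subcluster 5. Ccn5 followed at 9.25 points, and in subcluster 5 its share was 43.5% in control cells and 76.2% in the library labelled depleted. Tnxb, tenascin-X, had a mean of 7.08 points. Within the CCN family Ccn3 and Ccn5 thus had differences of opposite sign in subcluster 5.

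Of 22 receptors for these proteins, 20 are in the tables. In subclusters 0, 3, 4 and 5, 2, 6, 7 and 1 were higher by at least 10 points and 2, 2, 3 and 7 were lower, beside 10.8%, 13.1%, 24.7% and 21.2% of all genes higher and 9.85%, 17.1%, 20.3% and 14.3% lower. Integrin beta 1 (Itgb1), the shared chain of many matrix receptors, was counted in 100% of cells throughout. Cd36, a receptor of thrombospondins and fatty acids, had the highest mean difference, 12.42 points, from control shares of 5.5%, 3.3%, 5% and 0% to 3.1%, 26.1%, 20% and 14.3%. Itga9, an integrin chain that binds tenascin-C and osteopontin, had a mean of 4.53 points and the scavenger receptor Stab1 one of 3.78. The lowest means were those of Itgb5, an integrin chain that binds periostin with Itgav, at -7.05 points, Cd44, the osteopontin and hyaluronan receptor, at -4.38, and the Wnt receptor Fzd6 at -4.3. Cd44 was lower in subcluster 5, at 73.9% and 47.6%, and higher in subcluster 4, at 47.5% and 60%.

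Genes of fibroblast activation were read from a list of 16, all in the tables. They were higher by at least 10 points for 4, 1, 0 and 6 genes in subclusters 0, 3, 4 and 5 and lower for 0, 1, 3 and 0, with median differences of 0.35, 0.5, 0 and 5.75 points. The shares of all genes were again 10.8%, 13.1%, 24.7% and 21.2% higher and 9.85%, 17.1%, 20.3% and 14.3% lower, and the 3 of 16 lower in subcluster 4 are near that background. Acta2, smooth muscle actin, had the highest mean difference, 22.32 points, with control shares of 31%, 53.3%, 32.5% and 47.8% against 59.4%, 78.3%, 40% and 76.2%. Col8a1, a short-chain collagen, had a mean of 13.2 points, most of it from subcluster 5 (52.2% and 95.2%), and the collagen cross-linking enzyme Lox one of 6.62. Cnn1 (calponin) at -3.38 points and Timp1, an inhibitor of metalloproteases, at -2.28 had the lowest means. In subcluster 5, where Postn, Tnc, Thbs1 and Cthrc1 were higher by at least 10 points but by under a log2 ratio of 1, Acta2 and Col8a1 were higher as well, while Spp1, Sparcl1, Comp, Ccn3 and Ccn4 were lower. Markers of other fibroblast states differed there too. The mean share over 10 epicardial markers was 24.3% in control cells of subcluster 5 and 7.6% in the library labelled depleted, with 4 of 10 lower by at least 10 points (14.3% of all genes) and 9 of 10 lower by any amount (38.2%), single markers at 0% to 73.9% and 0% to 23.8%, and 1 and 3 of them at 0. The epicardial gene Wt1 was at 73.9% and 14.3% and Dmkn at 52.2% and 14.3%, whereas Tcf21, a marker of resident fibroblasts, was at 43.5% and 81%. Over the 10 fibroblast markers as a list the median difference in subcluster 5 was 0 points: 2 were higher by at least 10 points (Tcf21, and Pdgfrb at 78.3% and 90.5%), Pdgfra was at 87% and 81%, and the others were equal at 100%. In subclusters 0, 3 and 4 the epicardial mean of the library labelled depleted was 80.6%, 68.3% and 68%. The part of these markers in the values of subcluster 5 was not tested.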

How the data were processed

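Reads of 2 libraries were processed by the authors with Cell Ranger 6.1.1 against mouse GRCm39 extended by reporter sequences, combined without equalising depth, and handled in Seurat, with genes counted in at least 20 cells kept and poor clusters and outlying cells removed. Cluster and subcluster names, and which library makes up most of a subcluster, follow the study. No doublet caller is named, and barcodes were not analysed here. For each library, the deposited fraction of cells in which a gene's corrected count exceeds 0 was multiplied by 100 and rounded to 1 decimal. The authors corrected the counts of the fibroblast cluster again, on its cells alone, before forming subclusters. The deposited tables also hold the authors' comparison of genotypes (fold changes, p-values and adjusted p-values over cells), which was not used. Cluster tables list genes seen in 25% or more of one library's cells with a log2 fold change of 0.25 or more, and subcluster tables have no such limit. Cluster 16 and subclusters 1 and 2 were not analysed here.

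Groups followed the labels, and 0 columns of per-sample values lacked a sample. Members, gene lists and motifs were chosen with earlier results of these data known. All members were named, and of the lists of relatives, receptors and activation genes the 3 with the highest and the 3 with the lowest mean difference over the 4 subclusters (2 lowest for activation genes, where the next place is a tie at 0), and the 5 genes most correlated with Postn among those in at least 10% of cells in 1 of the 8 shares. Itgb1, Wt1, Dmkn, Tcf21, and Spp1 beside the genes listed as often, were singled out after their values were seen. With 1 library per group no p-value was computed, and the tables state no depth or cell number, so no interval is given. The counting of differences past a limit was tested on simulated data. Python 3.11.15, pandas 2.3.3, numpy 2.4.6 and matplotlib 3.10.9 were used. Alternatives were limits of 5 and 20 points, a log2 ratio of shares of at least 1, centring on the median of detected genes and, for the background, detected genes only.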

Additional observations from a re-analysis of the deposited data

Results flagged for a closer look

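Each of 4 genes was higher in one fibroblast subcluster and lower in another by at least 10 percentage points of cells, and these differences between subclusters were not tested. Postn was counted in a larger share of the library labelled depleted, by 13 points, in subcluster 5, and the difference in subcluster 3 was -27 points. For Sparcl1 the differences were 10 points in subcluster 4, a single step, and -58 in subcluster 5; the former went to 7.5 on centring and is not past a limit of strictly over 10 points, which leaves 3 genes. For Tnc they were 32.3 points in subcluster 5 and -17.5 in subcluster 4. For Cthrc1 they were 17.4 points in subcluster 5 and -60 in subcluster 4. Subcluster 4 of the library labelled depleted had no share between 0% and 10%, so its values move in wide steps.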

How the results depend on the processing

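No paired analysis was possible because there was a single library of each genotype, and for the same reason none could be left out. Centring on the median of detected genes turned the sign of Tnc in subcluster 3, from -0.3 to 0.1 points, took Thbs1 in subcluster 4 from 2.5 to 0, and moved differences of 0 (Sparc, for example, to -2.5 in subcluster 4). No member past the limit changed sign. With a limit of 20 points the members past it went from 2 to 1 (higher) and from 2 to 1 (lower) in subcluster 0, from 3 to 0 (higher) in subcluster 4 and from 4 to 1 (higher) in subcluster 5. In subcluster 3, 1 member (Thbs2) was higher with a limit of 5 points and another 1 (Comp, from 0%) with a log2 ratio of shares of at least 1; with that ratio 0 were higher in subcluster 5. Centring on the median of detected genes left 1 member higher in subcluster 4, where Postn and Sparcl1 went to 7.5 points, and took Thbs1 in subcluster 5 to 9.2, while the other 33 of 36 differences stayed on their side. Requiring a difference strictly over 10 points, an alternative chosen after seeing the data, also left 1 member higher in subcluster 4. Ordered by the library labelled depleted, 4 of 6 pairs of subclusters kept the Postn order. The 8 shares of all genes past the limit stayed within 1.5 times when only detected genes were counted. Depth and cell numbers, which the tables do not state, limit all values.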
